A study of Homo sapiens with 6 samples.

Results

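Binding of DPF3a, SMAD4 and p300 was examined at 10 genes of the insulin-like growth factor (IGF) binding protein system: PAPPA, PAPPA2, IGFBP1 to IGFBP7 and IGF1R. The genes were chosen by the fold enrichment of a DPF3a peak at PAPPA, which is among the highest of its list, so the strength of that peak is a description here and was not tested. Peaks were taken by their summit, the base of highest read pileup, wherever it fell in a gene (GENCODE release 44, hg38) or within 20 kb on either side. Under this rule 63 of 51530 DPF3a peaks, 51 of 46367 SMAD4 peaks and 19 of 20380 p300 peaks belonged to the 10 genes, which are 10 of 20033 protein-coding genes. Of these peaks, 2 DPF3a and 3 SMAD4 peaks lay in the windows of neighbouring members (IGFBP1 with IGFBP3, and IGFBP2 with IGFBP5).

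All chromatin came from 786-O, an established renal cell carcinoma line. DPF3a was precipitated through an HA tag in cells overexpressing HA-DPF3a and fixed with DSG plus formaldehyde, so its peaks describe the tagged, overexpressed protein. SMAD4 and p300 were precipitated with antibodies to the proteins after formaldehyde fixation, and whether those cells also overexpressed DPF3a is not given in the sources used here. Each factor had 2 libraries and 1 peak list made from both, with no replicate spread and no input library named. Every value below therefore stands for 1 list, and ranks, medians and shares were taken within a list. Values of different factors are given side by side to describe a site. They do not measure which factor bound more, because precipitation, and for DPF3a also fixation, differed. The lowest background in each list, 1.17, 2.25 and 2.05 reads for DPF3a, SMAD4 and p300, corresponds to about 15.8, 30.4 and 27.6 M reads if fragments were extended to 200 bp.

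IGFs circulate bound to IGF binding proteins, which hold them away from IGF1R, the receptor tyrosine kinase through which IGF1 and IGF2 signal. PAPPA (pappalysin-1) is a secreted metalloproteinase that cleaves IGFBP4 and IGFBP5 and so frees IGF near cells, and PAPPA2 is its paralogue. DPF3a is an isoform of DPF3, a subunit of the BAF chromatin remodelling complex, and has a C-terminus of its own in place of the tandem PHD domain of the other isoform, SMAD4 is the common partner of the receptor-activated SMADs in TGF-β signalling, and p300 is a histone acetyltransferase.

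The sites that the results below turn on are shown first, as 101 bases of the hg38 plus strand centred on the DPF3a summit. Capitals mark the AP-1 consensus (TGACTCA or TGAGTCA, searched on both strands), the element of JUN and FOS dimers, and at their summits all 8 DPF3a positions are intronic or intergenic. Part of the first window is also exon 4 of the antisense lncRNA ENSG00000244757. The 4 PAPPA sites held by all 3 factors come first, then the strongest PAPPA peak of DPF3a alone, with AP-1 at its summit, the strongest IGF1R site, the site between IGFBP1 and IGFBP3, and the site upstream of IGFBP3.
PAPPA intron, 135 kb from the start, chr9:116288854-116288954: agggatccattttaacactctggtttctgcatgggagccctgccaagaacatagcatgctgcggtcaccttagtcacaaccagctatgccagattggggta
PAPPA intron, 66.0 kb, chr9:116219768-116219868: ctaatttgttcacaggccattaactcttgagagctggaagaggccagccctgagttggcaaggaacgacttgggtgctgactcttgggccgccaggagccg
PAPPA intron, 212 kb, chr9:116365303-116365403: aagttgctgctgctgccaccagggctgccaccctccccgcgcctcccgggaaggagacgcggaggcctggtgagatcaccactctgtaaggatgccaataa
PAPPA intron, 238 kb, chr9:116391451-116391551: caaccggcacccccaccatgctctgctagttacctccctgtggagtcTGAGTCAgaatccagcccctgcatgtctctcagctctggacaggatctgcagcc
PAPPA intron, 73.1 kb, chr9:116226835-116226935: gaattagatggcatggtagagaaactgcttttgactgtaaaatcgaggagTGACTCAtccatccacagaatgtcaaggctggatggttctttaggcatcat
IGF1R intron, 79.3 kb, chr15:98727760-98727860: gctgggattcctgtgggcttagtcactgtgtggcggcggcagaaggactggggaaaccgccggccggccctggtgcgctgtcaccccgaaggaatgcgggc
IGFBP1 to IGFBP3 interval, chr7:45897504-45897604: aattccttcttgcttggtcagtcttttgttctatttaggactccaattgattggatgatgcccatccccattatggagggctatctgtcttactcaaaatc
IGFBP3, 3.3 kb upstream, chr7:45924473-45924573: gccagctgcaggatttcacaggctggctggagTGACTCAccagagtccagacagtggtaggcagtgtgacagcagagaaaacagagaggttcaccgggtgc

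By count, most peaks lay at PAPPA, IGF1R and IGFBP7, of which PAPPA and IGF1R have long windows of 289 and 356 kb. PAPPA held 19 DPF3a, 14 SMAD4 and 5 p300 peaks, IGF1R held 16, 14 and 6, and IGFBP7 held 12, 7 and 5. The other 7 genes held between 1 and 4 DPF3a peaks, between 0 and 5 SMAD4 peaks and between 0 and 2 p300 peaks, with no p300 peak at PAPPA2, IGFBP1, IGFBP2, IGFBP4 or IGFBP5. Per 100 kb of window the order was different. DPF3a peaks were densest at IGFBP7 (10.03), followed by IGFBP6 (6.68), PAPPA (6.59), IGFBP5 (6.30), IGFBP3 (6.04) and IGF1R (4.49). SMAD4 peaks were densest at IGFBP3 (10.07), IGFBP6 (8.91) and IGFBP1 (8.83), above IGFBP7 (5.85), PAPPA (4.85) and IGF1R (3.93).

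**Figure D1:**
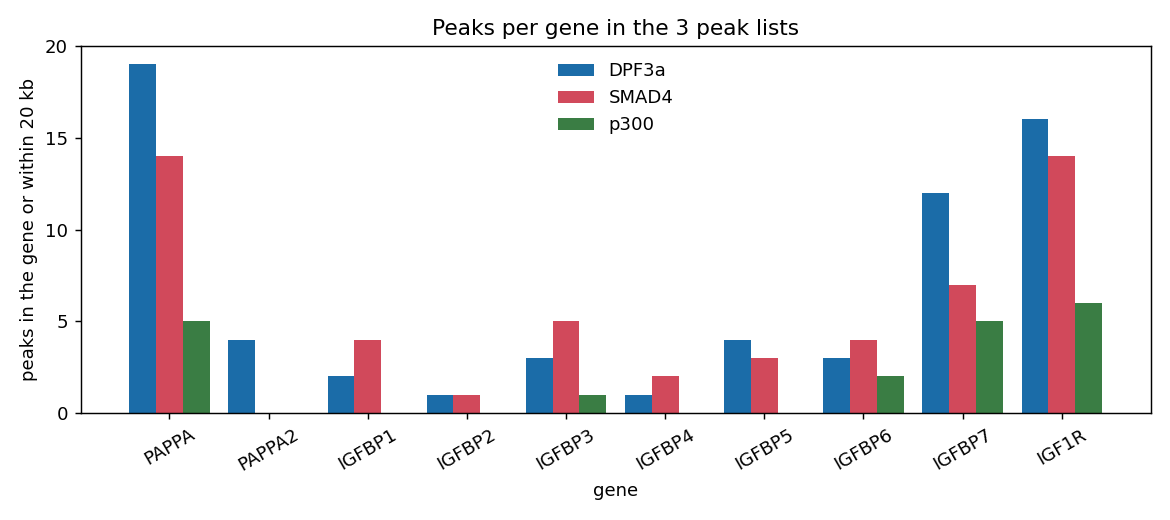
Number of DPF3a, SMAD4 and p300 peaks (bars, from 0) with the summit in each gene or within 20 kb of it, 1 peak list per factor. PAPPA (19, 14 and 5), IGF1R (16, 14 and 6) and IGFBP7 (12, 7 and 5) stand above the other members, and PAPPA2 has 4 DPF3a peaks with no bar for SMAD4 or p300.

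Having at least 1 peak was common across the genome, so the counts of members are read against that background. A DPF3a peak lay at 10 of the 10 members and at 79% of all protein-coding genes, a SMAD4 peak at 9 of 10 and at 81.3%, and a p300 peak at 5 of 10 and at 64.7%. A site of all 3 factors, meaning a DPF3a peak that overlapped a SMAD4 and a p300 peak by at least 0.5 of the length of each, lay at 4 of 10 members (PAPPA, IGFBP3, IGFBP6 and IGF1R) and at 41.4% of all genes. The members as a set were near the background for SMAD4 and for sites of all 3. The DPF3a count includes PAPPA, whose DPF3a peak was fixed by the choice of genes. With 10 genes, no departure from the background can be read from the DPF3a or the p300 count.

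Longer windows more often held a peak. Of the 3 members whose window was 150 kb or longer (PAPPA, PAPPA2 and IGF1R), 3 had a DPF3a peak, 2 a SMAD4 peak, 2 a p300 peak and 2 a site of all 3, beside 91.8%, 89.6%, 78.3% and 49.7% of genes with such windows. Of the 7 with shorter windows, 7 had a DPF3a peak, 7 a SMAD4 peak, 3 a p300 peak and 2 a site of all 3, beside 76.5%, 79.6%, 62% and 39.7% of genes. With so few genes these counts describe the members and carry no test.

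In the members' own promoters, taken as 1000 bp before to 100 bp after the canonical transcript start, the DPF3a and p300 counts were near the background. DPF3a and SMAD4 summits each fell in 2 of 10 canonical promoters, IGFBP7 and IGF1R in both cases, beside 29.4% and 45.8% of all protein-coding genes. A p300 summit also fell in 2 of 10, IGFBP6 and IGFBP7, beside 20.3% of all genes. All 3 counts depend on the downstream edge. SMAD4 summits also lay 136 bp after the start of IGFBP3, 242 bp after that of IGFBP6 and 262 bp after that of IGFBP4. Others lay 380 bp after that of IGFBP1 and 537 bp after that of PAPPA. DPF3a summits lay 136 bp after the start of IGFBP3 and 200 bp after that of IGFBP6. For p300 they lay 198 bp after the start of IGFBP3 and 681 bp after that of IGF1R.

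The gene of the protease PAPPA (ENSG00000182752, chr9:116153791-116402321, plus strand) carried its strongest signal far from its own start. The peak for which the genes were chosen, at chr9:116288615-116289114, had a DPF3a fold enrichment of 22.1, with 164 reads at the summit over a local background of 6.5 reads. It ranked 3 among 51530 DPF3a peaks by fold enrichment and 1 among the 10377 with a promoter summit. By −log10 q it ranked 11 and by summit height 47, so its place among the top peaks depends on the measure. The working description of this peak as a PAPPA promoter peak did not hold in the annotation: its summit lay 135 kb inside PAPPA and 135 bp before the start of the antisense lncRNA PAPPA-AS2 (chr9:116285829-116288769, minus strand), also within an intron of a longer antisense lncRNA (ENSG00000244757), next to its exon 4.

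Both other factors peaked at the same place, with summits inside that exon. The SMAD4 summit lay 27 bp from that of DPF3a, with a fold enrichment of 16.8, 93 reads and rank 190 of 46367. The p300 summit lay 38 bp away, with a fold enrichment of 6.40, 26 reads and rank 1689 of 20380. No AP-1 consensus was found within 50 bp of any of the 3 summits, and none of the other motifs searched was found there either.

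At PAPPA's own start SMAD4 alone was listed, with a summit 537 bp downstream in coding exon 1, a fold enrichment of 8.66 and 39 reads over 3.62. The nearest DPF3a summit in the gene was 37.4 kb downstream and the nearest p300 summit 66.0 kb downstream. The canonical PAPPA promoter therefore held no peak of any of the 3 lists.

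The remaining 3 PAPPA sites of all 3 factors lay in introns, at 66.0, 212 and 238 kb. At 66.0 kb DPF3a reached a fold enrichment of 12.9, SMAD4 10.3 and p300 6.73, the highest p300 value among the 19 member peaks. At 212 kb it was 10.2, 6.10 and 4.32, and at 238 kb 6.81, 6.58 and 4.11. The 238 kb site was the only one of the 4 with an AP-1 consensus near its DPF3a summit, starting 3 bp before it, and there the consensus overlapped a GTCTG element, the short SMAD binding element, by 2 bases.

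Of the other PAPPA sites, 8 DPF3a peaks were matched by neither SMAD4 nor p300. The strongest were at 73.1 kb (fold enrichment 10.7), with an AP-1 consensus starting on the summit base, and at 183 kb (10.4), with one starting 47 bp before it. A weak SMAD4 peak (4.23) lay wholly inside the 183 kb peak, with its summit 119 bp away, but covered less than 0.5 of it. Over all 19 DPF3a peaks at PAPPA the fold enrichment ran from 4.38 to 22.1 with a median of 6.84, and 5 summits had AP-1 within 50 bp. Peaks at 80.5 and 235 to 238 kb stood on local backgrounds of 10.3 to 11.5 reads, above 98% of the peaks of the DPF3a list.

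**Figure D2:**
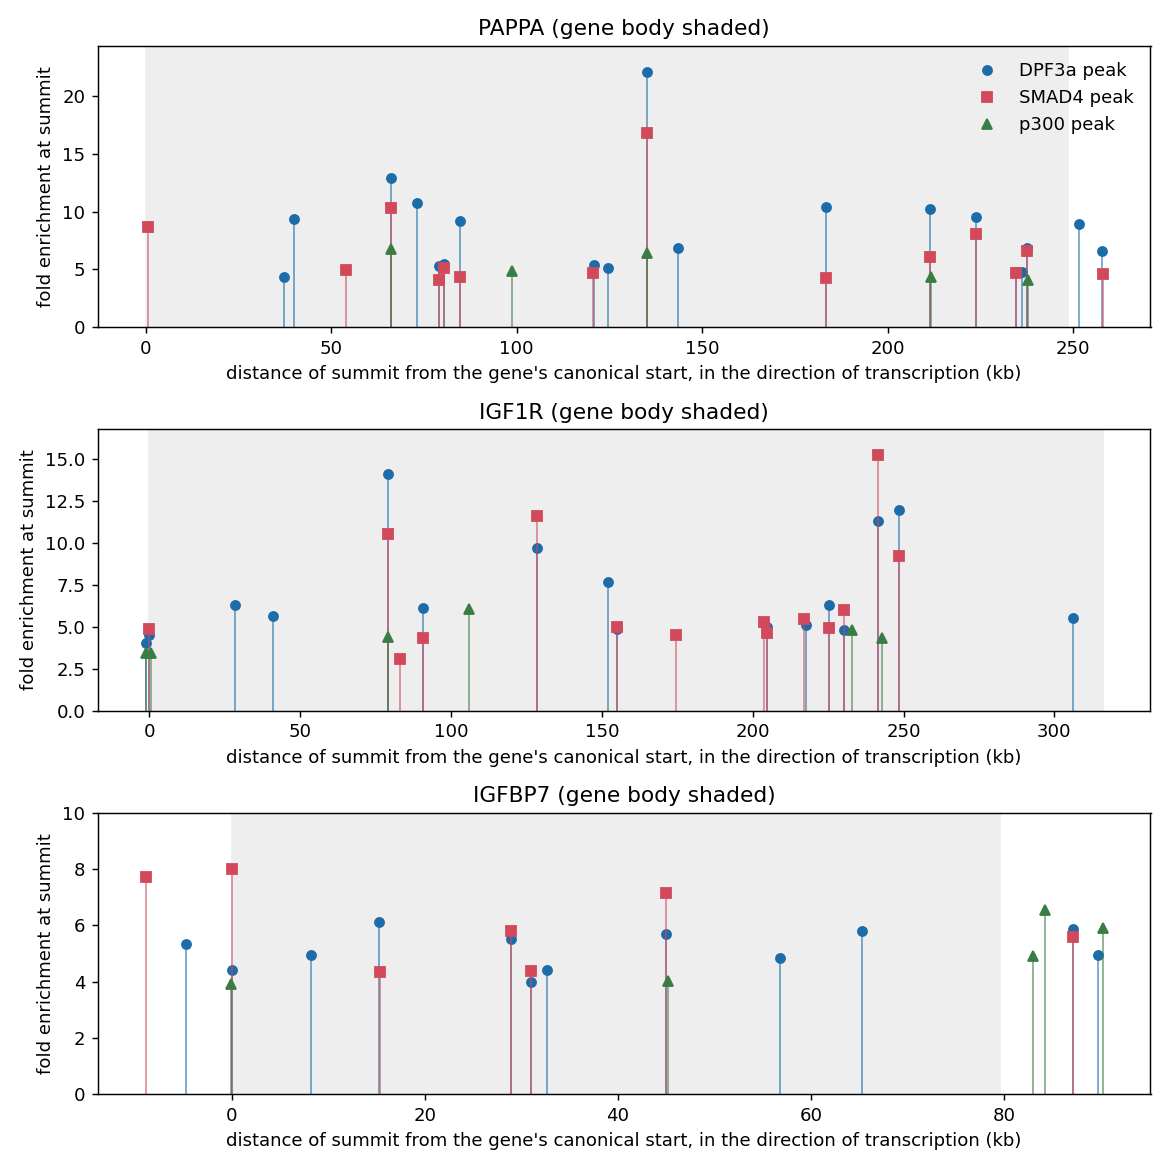
Fold enrichment at each summit (y axis) against its distance from the gene's canonical start in kb (x axis) for PAPPA, IGF1R and IGFBP7, with DPF3a (circles), SMAD4 (squares) and p300 (triangles) and the gene body shaded. The tallest PAPPA position, DPF3a 22.1 with SMAD4 16.8, is 135 kb inside the gene, the IGF1R maxima are at 79.3 kb for DPF3a (14.1), 242 kb for SMAD4 (15.3) and 106 kb for p300 (6.06), and no IGFBP7 peak exceeds 8.01.

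PAPPA2 (ENSG00000116183, chr1:176463171-176845601), the paralogous protease, differed from PAPPA in the count and kind of its peaks. Its window of 422 kb held 4 DPF3a peaks and none of SMAD4 or p300, or 0.947 DPF3a peaks per 100 kb beside 6.59 at PAPPA. The 4 fold enrichments ran from 4.73 to 7.35 on 12 to 24 reads, and the last summit lay in coding exon 18, 327 kb from the start. AP-1 was found at 2 of the 4. The nearest SMAD4 and p300 summits outside the window were 222 and 256 kb from the gene.

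The IGFBP1 and IGFBP3 genes, whose proteins bind IGFs in the circulation, lie next to each other on chromosome 7 and share a strong DPF3a site between them. At chr7:45897281-45897818 the DPF3a fold enrichment was 11.8 (43 reads over 2.72). The SMAD4 peak over it had 4.42 (19 reads over 3.52), and no p300 peak was listed. At IGFBP1 itself DPF3a also peaked 2.8 kb upstream of the start (7.24), and SMAD4 peaked in the first coding exon (4.29) and 13.6 kb upstream (4.51).

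IGFBP3 had SMAD4 and p300 peaks on high local backgrounds. At its start, in the first coding exon, all 3 factors were listed, with 27 DPF3a, 141 SMAD4 and 49 p300 reads at the summits, but on backgrounds of 7.98, 27.9 and 12.8 reads, so that the fold enrichments were 3.12, 4.91 and 3.63. The SMAD4 and p300 backgrounds were at or above those of 99.3% and 98.9% of the peaks in their lists, whose medians were 5.16 and 3.76 reads. At 3.3 kb upstream DPF3a reached 8.20 (62 reads over 6.68) with AP-1 starting 18 bp before its summit, and SMAD4 reached 7.84 (183 reads over 22.5), its highest summit among the members. A further SMAD4 peak 3.4 kb into the gene (2.75, 63 reads over 22.3) had the lowest SMAD4 fold enrichment of the members.

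**Figure D3:**
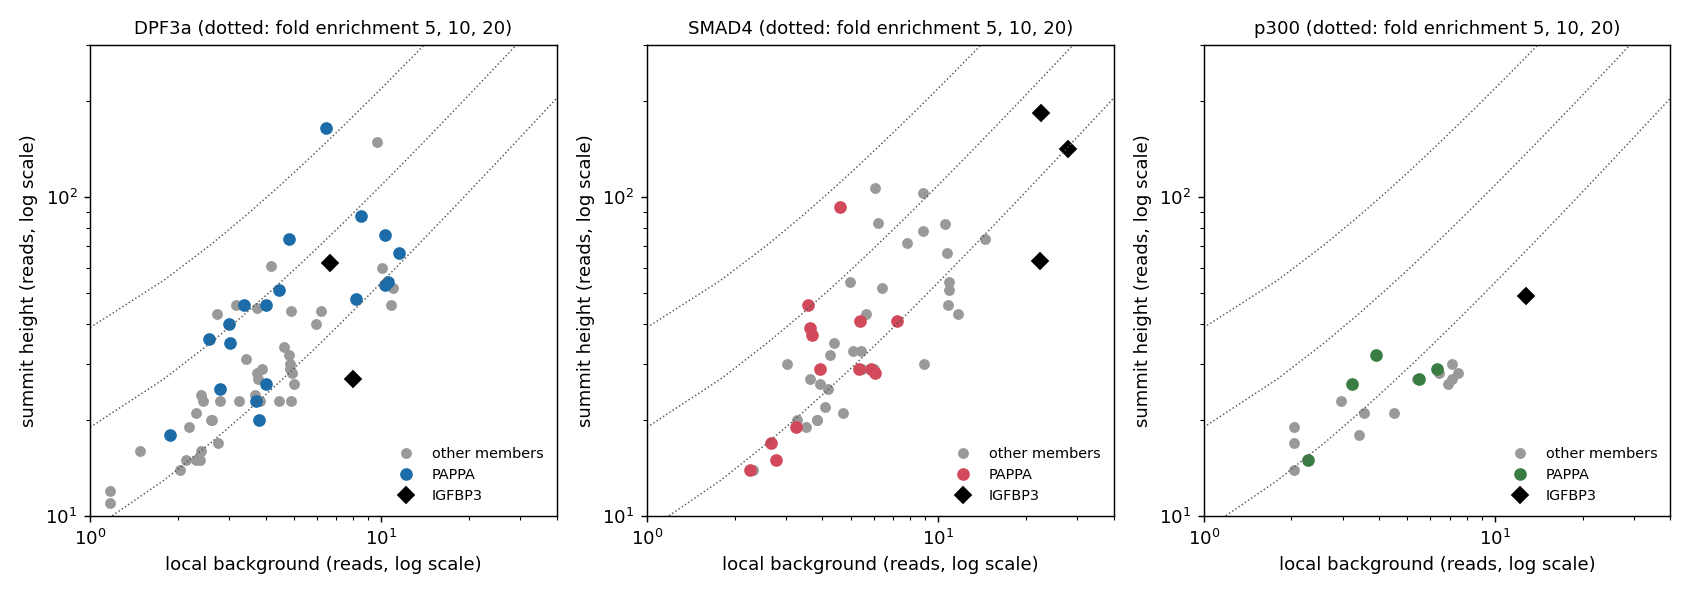
Reads at the summit (y axis, log scale) against local background reads (x axis, log scale) for every member peak, in 1 panel per factor, with PAPPA in colour, IGFBP3 as black diamonds (peaks shared with the IGFBP1 window are drawn in grey) and dotted lines at fold enrichments of 5, 10 and 20. The 3 IGFBP3 SMAD4 peaks sit on 22.3 to 27.9 background reads, to the right of all other members, and the PAPPA DPF3a peak of 164 reads lies above the line for 20.

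The genes of the binding proteins cut by PAPPA, IGFBP4 and IGFBP5, and IGFBP2 beside IGFBP5 on chromosome 2, had moderate DPF3a peaks. Their highest fold enrichments, 6.98, 6.67 and 6.67, were below the 11.8 between IGFBP1 and IGFBP3. They were above the DPF3a maxima at IGFBP6 (6.27) and IGFBP7 (6.12). IGFBP4 had a DPF3a and a SMAD4 peak 5.4 kb inside the gene (6.98 and 6.63), where the DPF3a peak covered less than 0.5 of the SMAD4 peak, and a SMAD4 peak at its start (3.86). IGFBP5 had a DPF3a peak 13.2 kb inside it (6.67, AP-1 at 36 bp) with SMAD4 at 4.62, which is also the only DPF3a and SMAD4 position in the IGFBP2 window. Its other 3 DPF3a peaks (5.12 to 6.23) and 2 SMAD4 peaks (6.30 and 6.69) lay 15.5 to 19.1 kb upstream within DIRC3-AS1, another gene.

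IGFBP6, a binding protein with a preference for IGF2, had peaks of all 3 factors at its start, with fold enrichments of 5.91, 7.20 and 3.83. A second position 1.8 kb inside the gene had DPF3a at 6.27, SMAD4 at 4.64 and p300 at 3.42, with AP-1 starting 3 bp after the DPF3a summit. There the p300 peak, 221 bp wide, covered less than 0.5 of the DPF3a peak, so it was not counted as a site of all 3. The third DPF3a peak of the window (5.83, with SMAD4 at 8.30) lay 18.1 kb upstream in the promoter of SPRYD3.

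IGFBP7, whose protein binds IGFs only weakly, had the densest DPF3a binding of the members but no high DPF3a fold enrichment. Its 120 kb window held 12 DPF3a peaks, 10.03 per 100 kb, with fold enrichments from 4.0 to 6.12. At the start DPF3a reached 4.41, SMAD4 8.01 and p300 3.92, and SMAD4 overlapped each of the others by 0.5 while DPF3a and p300 did not reach it with each other. Of the 5 p300 peaks 3, the strongest (6.56) among them, lay in the downstream flank inside POLR2B, the gene of an RNA polymerase II subunit, as did 2 DPF3a peaks and 1 SMAD4 peak.

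IGF1R (ENSG00000140443, chr15:98648539-98964530), the receptor gene, carried its strongest DPF3a peak 79.3 kb inside the gene, at its 1 site of all 3 factors. DPF3a reached a fold enrichment of 14.1 on 149 reads, SMAD4 10.5 on 103 reads and p300 4.39 on 27 reads. No AP-1 was found at any of these summits. At 242 kb SMAD4 reached 15.3 (rank 404 of 46367) and DPF3a 11.3, and at 249 kb SMAD4 reached 9.23 and DPF3a 12.0. Both positions were at starts of shorter annotated IGF1R transcripts, and neither was matched by a p300 peak. A further shared position at 129 kb had SMAD4 at 11.6, above its value at 79.3 kb, and DPF3a at 9.70. The strongest p300 peak of the gene lay apart from both other factors, at 106 kb, with a fold enrichment of 6.06 on 23 reads and AP-1 within 50 bp of its summit.

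At the canonical IGF1R start the peaks were weak and not shared. DPF3a summits lay 38 bp downstream (4.50) and 950 bp upstream (4.07), a SMAD4 summit 151 bp upstream (4.86, within a peak of 2083 bp) and p300 summits 1144 bp upstream (3.44) and 681 bp downstream (3.42). The upstream positions are also in the promoter of the antisense lncRNA IRAIN. The DPF3a and SMAD4 peaks here differed too much in width to overlap by 0.5 of both.

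The number of peaks was set beside genes whose windows were 0.5 to 2 times as long, again as a description. For DPF3a, 2.22% of 3203 such genes had as many peaks as PAPPA or more (median 4), 0.923% of 10184 as many as IGFBP7 (median 2) and 6.01% of 2281 as many as IGF1R (median 5). The PAPPA count includes the peak for which the genes were chosen. PAPPA2 fell on the other side, since 67.5% of 1733 such genes had at least its 4 peaks. The remaining members were ordinary for DPF3a. Their shares were 19.3% at IGFBP5, 31.5% at IGFBP6, 32.6% at IGFBP3, 52.2% at IGFBP1, 74.8% at IGFBP4 and 76.2% at IGFBP2. For SMAD4 the shares were 5.31% at PAPPA, 9.41% at IGFBP7 and 7.10% at IGF1R, and for p300 14.0%, 3.81% and 10.7%. At every other member they were 13.3% or more for SMAD4 and 26.6% or more for p300.

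**Figure D4:**
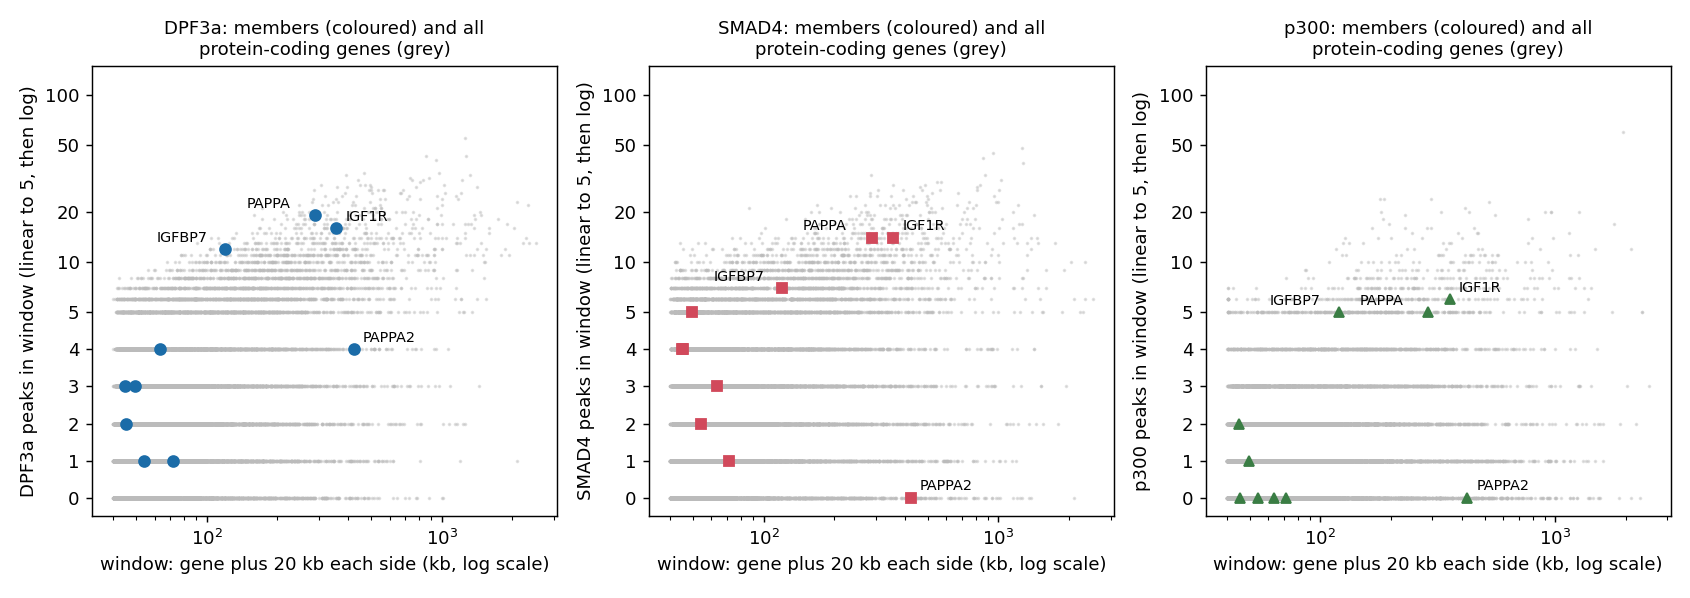
Peaks per window (y axis, linear to 5 and log above) against window length in kb (x axis, log scale) for each factor, with all 20033 protein-coding genes in grey and the 10 members in colour. PAPPA, IGF1R and IGFBP7 lie in the upper part of the DPF3a cloud at their lengths, and PAPPA2 lies low in DPF3a and at 0 in SMAD4 and p300.

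The genes most like PAPPA were SH3RF2 (11 DPF3a, 9 SMAD4 and 3 p300 peaks), CUL2 (10, 7 and 3) and SHROOM3 (26, 19 and 8). Likeness was measured over the 3 lists by the Euclidean distance of log2(1 + peaks per 100 kb), which was 0.14, 0.15 and 0.17.

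Sharing between the factors at member peaks was close to that of the whole lists. A SMAD4 peak overlapped 34 of the 63 DPF3a peaks by 0.5 of both, 54.0% (95% Wilson interval 41.8 to 65.7), beside 59.3% of all DPF3a peaks. A p300 peak overlapped 7 of 63, 11.1% (5.49 to 21.2), beside 16.6%, and these same 7 were the sites of all 3. PAPPA held 4 of the 7, among them the peak for which the genes were chosen. Neither factor matched 29 of 63, 46.0% (34.3 to 58.2), beside 39.3%. All of these intervals, which cover counting error only, include the share of the whole list.

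Where 2 factors shared a member peak, their summits were near each other. The median distance between DPF3a and SMAD4 summits was 27 bp over 34 pairs, with 25 within 50 bp, beside 49 bp over all 30567 pairs. It was 62 bp for the 7 DPF3a and p300 pairs (whole list 101 bp) and 66 bp for the 9 SMAD4 and p300 pairs (99 bp).

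By fold enrichment the typical member peak was not a strong one. The median fold enrichment of member peaks was 5.91 in the DPF3a list, 5.02 in that of SMAD4 and 4.32 in that of p300, beside 6.70, 6.30 and 4.92 over the whole lists. Without PAPPA the DPF3a median was 5.82 over 44 peaks. By summit reads the order depended on the list: the medians for DPF3a, SMAD4 and p300 were 29, 33 and 26, beside 25, 39 and 23. Median local backgrounds of member peaks were 3.8, 5.34 and 4.48 reads, beside 2.82, 5.16 and 3.76. The summits lay in introns in 47 of 63 DPF3a, 32 of 51 SMAD4 and 12 of 19 p300 cases, with no whole-list share of introns to set beside them. They lay in the promoter of any annotated transcript in 10, 11 and 6 cases. These were 15.9%, 21.6% and 31.6%, beside 20.1%, 29.8% and 36.9% of the whole lists.

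At the threshold of 20 kb, the DPF3a peak just inside was that of IGFBP5, 19.1 kb from the gene with a fold enrichment of 5.12. The one just outside was 21.5 kb from IGFBP6 with 11.3, above every DPF3a value within that gene's window, and SMAD4 (7.64) and p300 (4.36) peaks lay 21.6 kb from IGFBP6 at the same position.

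The AP-1 consensus was found at shares of member summits whose intervals included those of the whole lists. It was found within 50 bp of 15 of 63 DPF3a summits, 23.8% (15.0 to 35.6), beside 22.05% of all DPF3a summits and 1.51% of equally long windows centred 450 bp away. For SMAD4 the count was 7 of 51, 13.7% (6.81 to 25.7) beside 15.0%, and for p300 1 of 19, 5.26% (0.935 to 24.6) beside 3.61%. By gene, DPF3a summits with AP-1 numbered 5 of 19 at PAPPA, 3 of 12 at IGFBP7, 2 of 16 at IGF1R and 2 of 4 at PAPPA2.

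**Figure D5:**
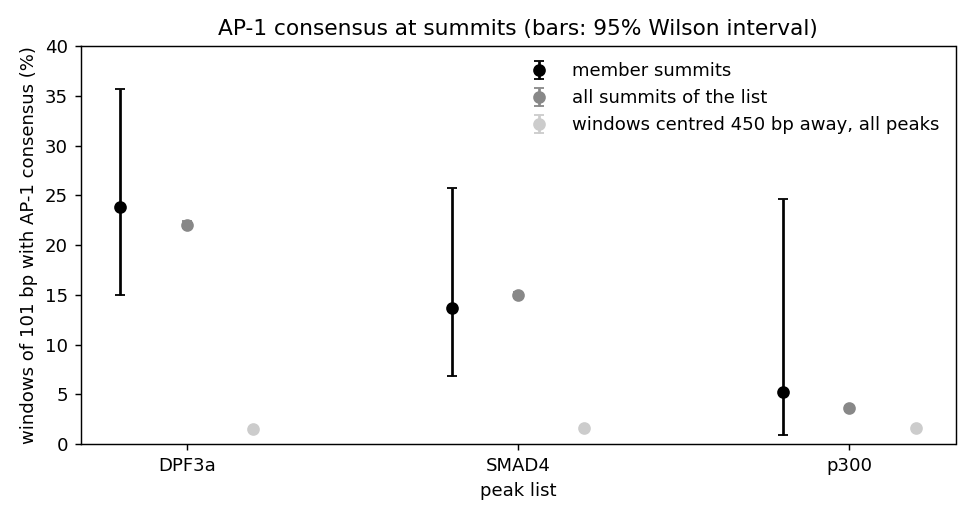
Percentage of windows of 101 bp around summits that hold the AP-1 consensus (y axis) in each peak list (x axis), for member summits (black), all summits (dark grey) and windows 450 bp away from all summits (light grey), with 95% Wilson intervals. Member summits, 23.8%, 13.7% and 5.26%, have wide intervals that include the value of their list.

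Within the members AP-1 stood at 8 of 29 DPF3a peaks shared with neither factor, 6 of 27 shared with SMAD4 alone and 1 of 7 shared with both. These shares, 27.6%, 22.2% and 14.3%, were near the 22.6%, 24.7% and 14.0% of the whole list. At fold enrichments of 10 or more it stood at 2 of 9 member peaks, 22.2% (6.32 to 54.7), beside 34.0% of all such DPF3a peaks. Of the other motifs, GTCTG was within 50 bp of 16 of 63 DPF3a summits (25.4% beside 20.3% of the list). This short string was also in 16.7% of equally long windows centred 450 bp away from all DPF3a summits. A RUNX motif was within 50 bp of 5 of the 63 (7.94% beside 10.4%), a TEAD motif of 7 (11.1% beside 12.5%) and the hypoxia element ACGTG of 2 (3.17% beside 6.58%). The SMAD palindrome and the ETS and NF-kB motifs were found at none of the 63. They are rare in the whole list too, at 0.064%, 0.338% and 0.076% of summits, so their absence says nothing about the members.

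The RefSeq promoter table, with 250 bases before to 50 after each start, matched 8 of the 10 members. AP-1 was found in none of the 8 and in 4.95% of all 35116 promoters, and the SP/KLF motif GGGCGGG in those of 4 (IGF1R, IGFBP2, IGFBP3 and IGFBP4) and in 33.1% of all. GTCTG was found in those of 1 (IGFBP2) and in 45.3% of all. Members were counted by gene and the background by promoter, and IGFBP2 had several promoters, so the units differ.

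Among 12 other genes of the pathway (the ligands IGF1 and IGF2, the receptors INSR and IGF2R, the adaptors IRS1 and IRS2, the carrier subunit IGFALS, the PAPPA inhibitors STC1, STC2 and PRG2, the protease HTRA1, and IGFBPL1), 11 had a DPF3a peak, 11 a SMAD4 peak, 7 a p300 peak and 7 a site of all 3. The same shares over all protein-coding genes were 79%, 81.3%, 64.7% and 41.4%, as above. HTRA1, a secreted serine protease, had the highest DPF3a value of the list, 13.6 at an intronic site 7.7 kb from its start, with SMAD4 at 11.7 and p300 at 4.15. IGF2, the growth factor, had a DPF3a peak of 10.4 with SMAD4 at 11.2 and p300 at 3.82, 36.4 kb upstream of its canonical start. The other 5 sites of all 3 were weaker in DPF3a, with fold enrichments of 7.24 at IGFBPL1, 6.51 at IRS2, 5.83 at STC2, 5.18 at IGF2R and 4.29 at IGFALS. Those at IGFBPL1 and IGFALS lay in promoters of the neighbouring genes ALDH1B1 and of EME2 and MRPS34.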

How the data were processed

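ChIP-seq of HA-DPF3a, SMAD4 and p300 in 786-O cells had 2 libraries per factor, grouped by the factor in each title. Adapter-trimmed reads had been aligned to hg38 by the authors using Bowtie2 (2.3.5.1), and those of mapping quality under 30, duplicates and mitochondrial reads discarded before MACS2 (2.2.5, versions as in the submitters' processing notes) was run. The deposited lists were made from both libraries of a factor, how is not stated. The score deposited by the authors was over 50 for every peak. Fold enrichment, as deposited, is a ratio, (summit reads + 1)/(background reads + 1). The −log10 p and −log10 q deposited by the authors compare summit and background, and summit positions were deposited as offsets from the peak start.

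Summit and background reads were recovered as the whole number of reads that gave both the deposited fold enrichment and −log10 p (error at most 0.00086 in −log10 p), with Python 3.11.15 and scipy 1.17.1. Recovery, overlaps (against bedtools 2.31.1) and promoter calls were checked on simulated data. Any promoter means 1000 bp before to 100 bp after any GENCODE 44 transcript start. Likeness and length comparisons used genes with windows 0.5 to 2 times as long. The 10 motifs were matched as exact strings on both strands within 50 bp of the summit: AP-1 (TGACTCA or TGAGTCA), the SMAD palindrome GTCTAGAC, the short SMAD element GTCTG, the SMAD element GGCGCC, RUNX (TGTGGTT or TGTGGTC), TEAD (GGAATG), the hypoxia element ACGTG, ETS (CCGGAAGT), SP/KLF (GGGCGGG) and NF-kB, where GTCTG can overlap AP-1. All 10 members were named, with, per member, the strongest peak of each list and every site of all 3. Of the pathway list, genes with a site of all 3 and the 2 with the highest DPF3a fold enrichment were named. Members and lists were chosen with earlier results of these data known. With 1 list per factor no test was made. Wilson 95% intervals cover counting error only. Windows of 5 and 100 kb, score minimums of 100 and 200, other overlap, promoter and motif rules, and all annotated genes as background were tried as alternatives.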

Additional observations from a re-analysis of the deposited data

How the results depend on the processing

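No paired analysis was possible because every list merges the 2 libraries of its factor, and for the same reason no replicate could be left out. With windows of 100 kb the members held 98 DPF3a, 92 SMAD4 and 35 p300 peaks. With a score over 100, SMAD4 peaks fell to 32 and p300 peaks to 3, at 2 genes. Of the 42 DPF3a peaks left at that score, 20 were shared with SMAD4, 2 with p300 and 2 with both. With a score over 200, 20 DPF3a peaks at 6 genes, 17 SMAD4 peaks and 0 p300 peaks at 0 genes were left. An overlap of 1 bp gave 11 DPF3a peaks with p300, which were also the 11 sites of all 3. Promoters of 1000 bp on both sides held 17 SMAD4 summits and those of 2500 bp 19, and starts of protein-coding transcripts alone gave 6 DPF3a, 7 SMAD4 and 2 p300 summits, the PAPPA-AS2 site being among those lost by construction. The rank of the PAPPA peak was 11 by −log10 q and 47 by summit height. AP-1 was found within 100 bp of 25 of the 63 DPF3a summits. Shares of the whole lists were not taken at these score, overlap, promoter and motif settings. The counts therefore do not set the members against their lists. Over all annotated genes the background shares were 60.2%, 59.7%, 42.7% and 25% for DPF3a, SMAD4, p300 and sites of all 3. The remaining alternatives stayed within 1.5 times the reported count, among them the SMAD4 peak as anchor of a site of all 3 (9 sites), which was chosen after seeing the data. Of the 19 p300 member peaks 16 had a score of 100 or less, close to the threshold of the list, so that the absence of a p300 peak at a member says only that none passed it.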
